A study of Homo sapiens with 12 samples.

Results

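The genes described here are 34 human genes of mitosis and cytokinesis, given as a fixed list of cyclins, mitotic kinases, checkpoint and anaphase genes, centromere proteins, kinesins, spindle proteins and cytokinesis proteins. They were found by joining gene symbols to the Ensembl identifiers of the deposited count table, which held 60483 genes, and the rule itself uses no measured value. The list was, however, chosen with earlier results of these data known. Its shares of calls, set beside those of all genes, are thus a description and not an independent test. All 34 were matched, and all 34 were among the 17175 genes that passed the filter on low counts. Total RNA, depleted of ribosomal and globin RNA, was sequenced from HUDEP-2, an immortalised human erythroid precursor line that can be kept dividing or driven towards red cells. The series set MBD2 knockout cells against control cells to measure how loss of MBD2, a protein that binds methylated DNA and recruits the NuRD corepressor, changes expression in an erythroid model.

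There were 4 groups of 3 libraries. Knockout cells after differentiation carried the genotype MBD2-/- and were labelled late basophilic erythroblasts. Control cells after differentiation carried a scrambled guide RNA (sgSCR), a genotype the labels call WT, and had the same stage label. Knockout cells before differentiation were MBD2-/- and labelled early basophilic erythroblasts, and control cells before differentiation were sgSCR cells of that stage. Cells after differentiation were in IMDM with human AB serum at 5%, EPO at 3 IU/mL, DOX at 1 ug/mL, insulin at 10.0 ug/mL, heparin at 3 IU/mL, holo-transferrin at 0.5 mg/mL and L-glutamine. Cells before differentiation were in StemSpan SFEM medium with SCF at 50.0 ng/mL, EPO at 3 IU/mL, DEX, DOX at 1 ug/mL and L-glutamine. EPO and DOX were thus shared by all 4 groups, and SCF and DEX were in the expansion medium alone, so that medium and stage changed together. The labels give 3 days of differentiation for the extracted RNA and 5 days in the culture protocol. They do not say whether the knockout cells were 1 clone or whether replicates were separate cultures, so the p-values given here rest on the spread among libraries that may be technical repeats.

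Mitosis is run by cyclin-dependent kinase 1 with its cyclin partners and by the Aurora and Polo kinases. Kinesins and microtubule-binding proteins build the spindle, the checkpoint holds anaphase until every kinetochore is attached, and the anaphase promoting complex then marks securin and cyclins for destruction before a contractile ring splits the cell. Most of these genes are transcribed in the later part of the cell cycle under the DREAM complex and the MuvB, B-MYB and FOXM1 activators, through promoter elements called CHR (cell cycle genes homology region) and through CCAAT boxes bound by NF-Y. Erythroblasts keep dividing through the basophilic stages and leave the cycle before they lose the nucleus.

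The promoters of 6 of the genes are printed because their transcripts gave the main patterns below: ANLN, MKI67 and KIF20A were clearly higher in the differentiated knockout cells, CCNA2 and HMMR had knockout effects of opposite sign at the 2 stages, and CCNB1 was called in neither knockout comparison. The effect of HMMR after differentiation was not called, and both CCNA2 calls were lost when certain single libraries were left out. Each promoter is the RefSeq window of 250 bases before to 50 bases after the gene's start in build GRCh38.p14, 5′ to 3′ on the gene's strand. Capitals mark TTTGAA or TTTAAA on either strand (letters used by many CHR elements) and CCAAT on either strand. The windows lie at chr7:36389612-36389911 (plus strand) for ANLN, chr10:128126374-128126673 (minus strand) for MKI67, chr5:138178862-138179161 (plus strand) for KIF20A, chr4:121823834-121824133 (minus strand) for CCNA2, chr5:163460382-163460681 (plus strand) for HMMR and chr5:69166900-69167199 (plus strand) for CCNB1.
ANLN: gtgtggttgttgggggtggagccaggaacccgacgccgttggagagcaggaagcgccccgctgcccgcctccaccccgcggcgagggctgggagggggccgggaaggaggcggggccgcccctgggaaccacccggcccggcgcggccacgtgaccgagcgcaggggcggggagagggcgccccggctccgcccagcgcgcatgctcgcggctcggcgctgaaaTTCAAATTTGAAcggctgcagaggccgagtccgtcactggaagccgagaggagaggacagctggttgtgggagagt
MKI67: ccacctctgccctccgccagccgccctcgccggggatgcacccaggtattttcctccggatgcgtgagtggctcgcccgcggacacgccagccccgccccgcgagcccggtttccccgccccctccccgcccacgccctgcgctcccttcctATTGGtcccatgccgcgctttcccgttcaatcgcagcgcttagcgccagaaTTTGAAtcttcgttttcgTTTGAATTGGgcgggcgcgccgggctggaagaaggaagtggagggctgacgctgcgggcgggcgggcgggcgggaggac
KIF20A: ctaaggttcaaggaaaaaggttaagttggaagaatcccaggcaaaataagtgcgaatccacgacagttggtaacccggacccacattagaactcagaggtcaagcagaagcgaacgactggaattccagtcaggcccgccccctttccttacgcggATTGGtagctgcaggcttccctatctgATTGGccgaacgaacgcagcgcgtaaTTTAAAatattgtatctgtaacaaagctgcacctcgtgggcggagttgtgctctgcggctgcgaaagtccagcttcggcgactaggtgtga
CCNA2: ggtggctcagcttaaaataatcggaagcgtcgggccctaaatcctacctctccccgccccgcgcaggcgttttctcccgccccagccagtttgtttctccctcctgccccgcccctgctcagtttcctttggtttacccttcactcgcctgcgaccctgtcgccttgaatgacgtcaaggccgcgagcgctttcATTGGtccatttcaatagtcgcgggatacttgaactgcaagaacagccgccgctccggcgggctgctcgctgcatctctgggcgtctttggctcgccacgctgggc
HMMR: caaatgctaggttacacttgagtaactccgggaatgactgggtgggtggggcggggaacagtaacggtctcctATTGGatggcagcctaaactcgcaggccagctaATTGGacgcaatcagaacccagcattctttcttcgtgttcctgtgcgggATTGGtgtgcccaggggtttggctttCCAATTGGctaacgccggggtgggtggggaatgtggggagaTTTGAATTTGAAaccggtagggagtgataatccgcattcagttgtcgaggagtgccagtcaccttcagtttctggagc
CCNB1: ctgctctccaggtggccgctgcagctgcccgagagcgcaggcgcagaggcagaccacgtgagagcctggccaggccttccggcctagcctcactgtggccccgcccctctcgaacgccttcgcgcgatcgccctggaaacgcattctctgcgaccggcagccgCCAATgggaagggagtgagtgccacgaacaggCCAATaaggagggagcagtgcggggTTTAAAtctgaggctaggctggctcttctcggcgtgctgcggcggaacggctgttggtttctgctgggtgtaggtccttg

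ANLN has TTTGAA matches that begin 26 and 20 bases before the start and no CCAAT in the window. MKI67 has TTTGAA at 47 and 29 bases and CCAAT at 98 and 24 bases before the start. KIF20A has TTTAAA at 41 bases with CCAAT at 94 and 67 bases, and CCNB1 has TTTAAA at 30 bases with CCAAT at 87 and 55 bases. HMMR has TTTGAA at 28 and 22 bases and 5 CCAAT matches, the nearest 66 bases before the start. CCNA2 has neither of the TTT motifs and a single CCAAT, 56 bases before the start. The last statement says only that these letters are not in this window.

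Of the 34 genes, 29 were in the RefSeq promoter table (AURKA, TPX2, TTK, UBE2C and BIRC5 were not). The table gives AURKB, CDK1, ECT2 and PTTG1 more than 1 window each, and a gene was counted where any of its windows held the motif, for all genes likewise. TTTGAA on either strand was present for 21 of the 29 genes (72.4%), against 18.2% of all 27305 genes in that table. TTTAAA was present in 12 of the 29 (41.4%), against 14.5% of all genes, and CCAAT in 25 of the 29 (86.2%), against 39.7%. Matches on both strands were counted, and neighbouring matches may overlap. At least 1 of TTTGAA and TTTAAA was present for 26 of the 29 genes (89.7%), against 27.9% of all genes. Such a motif together with CCAAT was present in 22 (75.9%), against 12.7%. Among the members with a window, TTTGAA was present in 12 of the 16 that were called higher in differentiated knockout cells and in 9 of the 13 that were not called there. The motif was therefore common in both groups of genes.

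Total counts per library ran from 7667997 to 14047498. Expression is given as CPM, counts per 1000000 of a library's total after that total is corrected for composition with TMM factors. MBD2 itself had 14.6 to 16.8 CPM in knockout and 58.2 to 61.4 CPM in control libraries after differentiation, and 19.8 to 24.5 CPM in knockout and 75.3 to 78.7 CPM in control libraries before it. Its log2 fold change, knockout over control, was -1.91 ± 0.09 after and -1.79 ± 0.08 before differentiation (± standard error, SE), and the labels do not place the guide within the gene. Genes of chromosome 18 had a median log2 fold change, knockout over control, of -0.38 after and -0.48 before differentiation over 265 tested genes. The median of the other genes was -0.003 after and -0.001 before. MBD2 itself lies on that chromosome, so the 2 genotypes differed over the chromosome around MBD2 as well as in MBD2. The part of the chromosome-wide difference in the fold change of MBD2 was not tested. No member lies on chromosome 18, and the part of the chromosome-wide difference in the member results was not tested. All 14 erythroid markers, among them ALAS2 and SLC4A1, passed the filter, and all 10 lymphoid and all 10 stromal markers did not. In these bulk libraries a different share of dividing cells, larger or smaller, and more or less RNA of these genes per cell cannot be told apart.

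**Figure D1:**
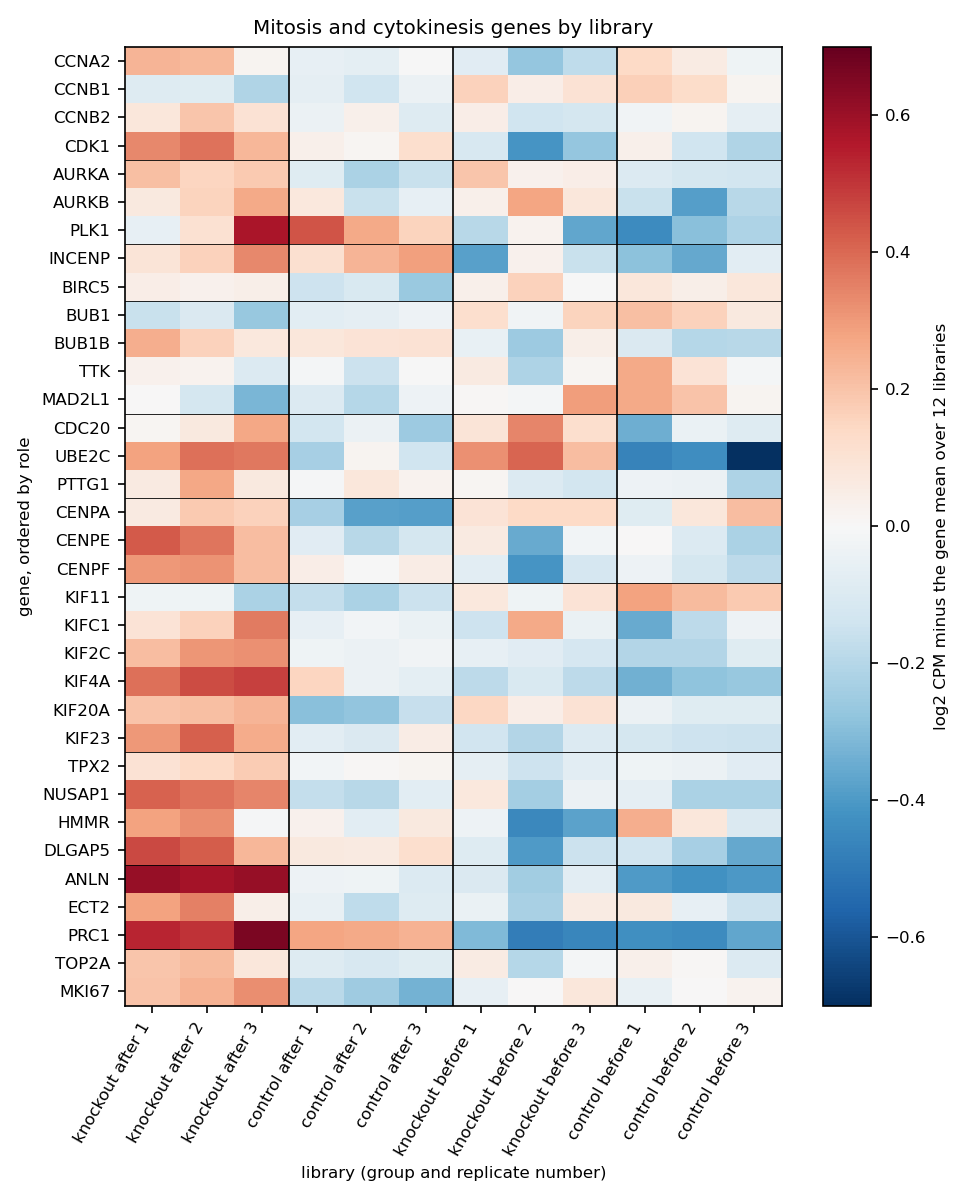
Log2 CPM of each of the 34 genes (rows, grouped by role) minus its mean over the 12 libraries, for knockout and control libraries after and then before differentiation (columns). The knockout libraries after differentiation are above the gene mean for most rows, with ANLN and PRC1 the darkest, while BUB1 and CCNB1 are below it.

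The 34 genes lie on 15 chromosomes and none shares most of its exons with another gene. Per kilobase of exon, TOP2A, the topoisomerase that untangles sister DNA, had the highest mean level in all 4 groups, with 171 CPM per kb in knockout and 143 CPM per kb in control cells after differentiation and 148 CPM per kb in knockout and 151 CPM per kb in control cells before it. The cyclin gene CCNA2 had the next highest level per kilobase in differentiated cells, with 120.1 CPM per kb in knockout and 104 CPM per kb in control cells. PLK1, the Polo-like kinase, was lowest in all 4 groups, with 4.34 CPM per kb in knockout and 4.52 CPM per kb in control cells after differentiation, and the Aurora kinase gene AURKB was next to it at 7.78 and 6.74 CPM per kb in the same 2 groups. Within a group the median coefficient of variation over the 34 genes was 5.45% in knockout and 4.39% in control libraries after differentiation, and 7.00% in knockout and 5.54% in control libraries before it. The widest was 23.6%, for PLK1 in differentiated knockout libraries.

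Counts over exons were made without regard to strand, and 13 of the 34 genes share exon bases with another annotated gene. The shared part is at most 12.7% of a gene's exon bases (KIFC1), and in 2 genes, BUB1B and CENPA, it lies on the same strand. The retrocopies PTTG2 and KIF4B, near copies of PTTG1 and KIF4A, held 609 and 1390 counts over all libraries, so reads of those pairs could have been split.

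In differentiated cells, many mitosis and cytokinesis genes had higher transcript levels in the MBD2 knockout than in the control. Of the 34, 19 were called higher and 0 lower at an adjusted p under 0.05 (edgeR quasi-likelihood test, Benjamini-Hochberg over all genes tested), where 16.8% of all genes tested were called higher and 16.3% lower. The cytokinesis scaffold ANLN rose most, 1.57-fold, followed by the spindle protein NUSAP1 and the proliferation antigen MKI67, at 1.44-fold and 1.43-fold. The spindle checkpoint genes BUB1, BUB1B, TTK and MAD2L1 and the cyclin B genes were not called. The median log2 fold change of the 34 was 0.25, beside -0.01 over all genes tested. At an unadjusted p under 0.05, 23 were higher and 0 lower, and DESeq2 made 19 higher and 0 lower calls.

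The changes were modest and mostly without overlap between libraries. All 3 knockout libraries lay above all 3 control libraries for 23 of the 34 genes and below them for 1, BUB1, where 23.2% of all genes tested lay above and 23.6% below. Summed over the 34 genes, the knockout libraries held 8173, 8268 and 7844 CPM and the control libraries 6766, 6605 and 6763 CPM. Every knockout library was above every control library in that sum. It made up 0.784% to 0.827% of the scaled counts in knockout and 0.661% to 0.677% in control libraries.

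All 3 cytokinesis genes were called higher. ANLN, the anillin that links the contractile ring to the membrane, had 207, 202 and 207 CPM in the knockout libraries after differentiation, against 132, 133 and 127 CPM in the control libraries. The groups were far apart, and the log2 fold change was 0.65 ± 0.06 (adjusted p = 1.98e-07). PRC1, which bundles microtubules of the central spindle, had 232, 227 and 253 CPM in the knockout libraries after differentiation, against 194, 192 and 189 CPM in the control libraries, without overlap, for a log2 fold change of 0.31 ± 0.06. ECT2, the exchange factor that activates RhoA at the cleavage site, had 132, 139 and 111 CPM in the knockout libraries after differentiation, against 105, 96.0 and 102 CPM in the control libraries. Knockout replicate 3 was closest to the controls but still above all of them, and its log2 fold change was 0.34 ± 0.09 (adjusted p = 0.00667).

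Both genes of the mitotic chromosome rose. MKI67, which coats mitotic chromosomes and keeps them apart, had 834, 862 and 910.4 CPM in the knockout libraries after differentiation, against 637, 612 and 579 CPM in the control libraries, with no overlap. Its log2 fold change was 0.51 ± 0.07 (adjusted p = 1.06e-05). TOP2A had 1124, 1147 and 1039 CPM in the knockout libraries after differentiation, against 925, 909 and 926 CPM in the control libraries, a log2 fold change of 0.26 ± 0.07 (adjusted p = 0.0111).

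All 3 centromere and kinetochore genes were higher. CENPE, the kinesin that carries chromosomes along the spindle, had 448, 431 and 387 CPM in the knockout libraries after differentiation, against 315, 290.2 and 305 CPM in the control libraries, and its log2 fold change was 0.48 ± 0.09. CENPA, the histone H3 variant that marks centromeres, had 25.0, 27.1 and 26.7 CPM in the knockout libraries after differentiation, against 20.3, 18.4 and 18.3 CPM in the control libraries, a log2 fold change of 0.47 ± 0.10. All 3 knockout libraries lay above the controls for both genes, although CENPA was expressed at a low level. CENPF, a large kinetochore protein, had 1102, 1112 and 1037 CPM in the knockout libraries after differentiation, against 924, 893 and 928 CPM in the control libraries, again without overlap, with a smaller log2 fold change of 0.24 ± 0.08.

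Of the 6 mitotic kinesins, 4 were called higher. KIF20A, which works in the central spindle and cytokinesis, had 138, 139.6 and 142 CPM in the knockout libraries after differentiation, against 98.4, 99.5 and 108 CPM in the control libraries, so the 2 groups were clearly separated. The log2 fold change of KIF20A was 0.46 ± 0.06 (adjusted p = 1.07e-05). KIF4A, a chromosome-bound motor that shortens the central spindle, measured 0.43 ± 0.07 on the log2 fold change scale, KIF23, the motor of centralspindlin, 0.37 ± 0.06, and KIF2C, which depolymerises microtubules at kinetochores, 0.32 ± 0.06. In each of these the knockout libraries were all above the control libraries. KIF11, which pushes the spindle poles apart, had 203, 202 and 177 CPM in the knockout libraries after differentiation, against 184, 177 and 187 CPM in the control libraries and was not called (log2 fold change 0.09 ± 0.07, adjusted p = 0.344). KIFC1, a minus-end motor, had a log2 fold change of 0.25 ± 0.10 and was not called (adjusted p = 0.0729), though its libraries did not overlap.

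The spindle assembly genes were divided. NUSAP1, which stabilises spindle microtubules near chromosomes, had 333, 325 and 316 CPM in the knockout libraries after differentiation, against 222, 218 and 237 CPM in the control libraries, all far above the controls. The log2 fold change of NUSAP1 was 0.52 ± 0.08 (adjusted p = 4.52e-05). DLGAP5, which stabilises kinetochore fibres, was called higher at 0.29 ± 0.08. HMMR, a spindle protein also known as a hyaluronan receptor, had 155, 160.0 and 127 CPM in the knockout libraries after differentiation, against 131, 121 and 134 CPM in the control libraries, and the groups overlapped. TPX2, the activator of Aurora A on the spindle, had 294 to 311 CPM in knockout and 271 to 279 CPM in control libraries, a difference of 0.14 ± 0.06 that did not pass (adjusted p = 0.0735).

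Among the cyclins and the mitotic CDK, CDK1 and CCNA2 were called higher and the cyclin B genes were not. CDK1, the kinase that drives entry into mitosis, had 243, 250.4 and 226 CPM in the knockout libraries after differentiation, against 197, 195 and 209 CPM in the control libraries (log2 fold change 0.26 ± 0.08). CCNA2, its cyclin A partner, had 353, 351 and 304 CPM in the knockout libraries after differentiation, against 288, 285 and 299.5 CPM in the control libraries. Knockout replicate 3 of CCNA2 was only just above the highest control, and the log2 fold change was 0.21 ± 0.07 (adjusted p = 0.0384). CCNB1, the main mitotic cyclin, had 235, 235 and 216 CPM in the knockout libraries after differentiation, against 239, 227 and 242 CPM in the control libraries, with overlapping groups and a log2 fold change of -0.05 ± 0.06. CCNB2, the second B-type cyclin, measured 0.15 ± 0.07 (adjusted p = 0.087).

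Of the Aurora and Polo kinases and the passenger proteins that hold Aurora B in place, AURKA and BIRC5 were called. AURKA, the centrosomal Aurora kinase, had 124, 119 and 121 CPM in the knockout libraries after differentiation, against 101, 91.6 and 95.9 CPM in the control libraries, without overlap (log2 fold change 0.34 ± 0.06). BIRC5, known as survivin, had 96.5, 95.1 and 95.9 CPM in the knockout libraries after differentiation, against 84.4, 86.6 and 78.0 CPM in the control libraries, also without overlap, and a log2 fold change of 0.21 ± 0.06. AURKB measured 0.21 ± 0.11, its scaffold INCENP -0.01 ± 0.10 and PLK1 -0.07 ± 0.15, and in all 3 the libraries of the groups overlapped.

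Of the anaphase genes, 1 of 3 was called and of the spindle checkpoint genes 0 of 4. UBE2C, the ubiquitin-conjugating enzyme that works with the anaphase promoting complex, had 25.8, 27.8 and 27.4 CPM in the knockout libraries after differentiation, against 18.1, 21.5 and 19.3 CPM in the control libraries, a log2 fold change of 0.46 ± 0.10. CDC20, the activator of that complex, missed the threshold at 0.25 ± 0.10 (adjusted p = 0.054), and PTTG1, the securin that restrains separase, measured 0.11 ± 0.07. BUB1, a checkpoint kinase, had 214, 223 and 198 CPM in the knockout libraries after differentiation, against 227, 228 and 233 CPM in the control libraries. All knockout libraries of BUB1 were below the controls, but the difference of -0.12 ± 0.07 was not called (adjusted p = 0.21). BUB1B, MAD2L1 and the kinase TTK had log2 fold changes of 0.07, -0.03 and 0.04, each with overlapping libraries. At an unadjusted p under 0.05, 0 of the 4 checkpoint genes passed, and DESeq2 called 0.

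**Figure D2:**
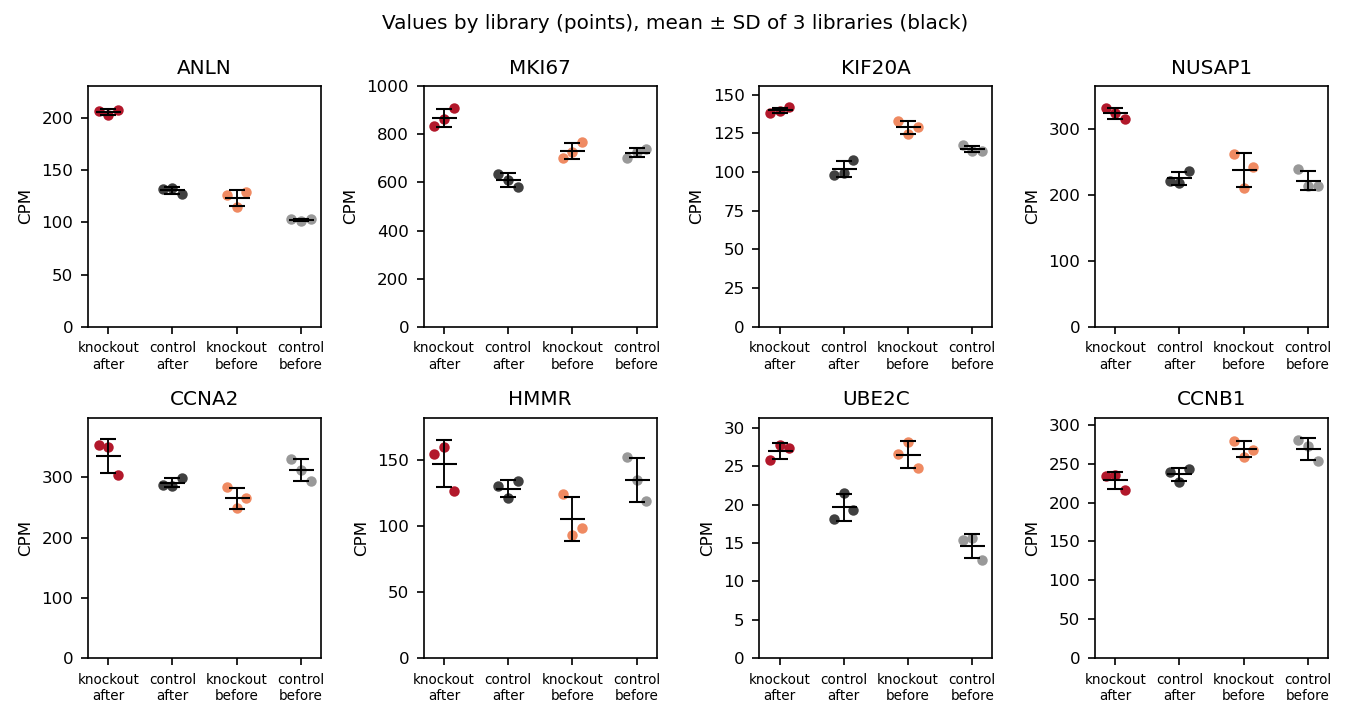
CPM of 8 genes in each library (points) with mean ± SD of 3 libraries (black), groups along the x axis and each y axis starting at 0. In ANLN, MKI67, KIF20A and NUSAP1 the differentiated knockout libraries are above all others, UBE2C is higher in knockout libraries at both stages, and CCNB1 shows no gap between genotypes.

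The test was repeated with each of the 12 libraries left out in turn, always 1 at a time. Of the 19 calls, 13 were made in all 12 repeats: ANLN, AURKA, CENPA, CENPE, ECT2, KIF20A, KIF23, KIF2C, KIF4A, NUSAP1, PRC1, UBE2C and MKI67. CCNA2 was not called without knockout replicates 1 and 2 after differentiation, control replicates 1, 2 and 3 after differentiation or control replicate 2 before differentiation (adjusted p from 0.0555 to 0.148), and CENPF not without knockout replicates 1 and 2 after differentiation or control replicates 1, 2 and 3 after differentiation (adjusted p from 0.0557 to 0.0861). CDK1 was not called without knockout replicates 1 and 2 after differentiation or control replicates 1 and 2 after differentiation (adjusted p from 0.0574 to 0.077), DLGAP5 not without knockout replicates 1 and 2 after differentiation (adjusted p from 0.0504 to 0.0634), BIRC5 not without knockout replicate 1 after differentiation or control replicate 3 after differentiation (adjusted p from 0.0581 to 0.101) and TOP2A not without knockout replicate 2 after differentiation (adjusted p = 0.0503).

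The calls are relative to other genes. TMM factors were lowest in differentiated knockout libraries, and scaling by library totals alone moved the median log2 fold change of all genes to -0.17 and that of the 34 to 0.095, a distance of 0.26 under both scalings. By totals alone 10 of the 34 were called higher and 2, BUB1 and CCNB1, lower. The share of calls over all genes that were higher was 50.7% with TMM and 27.6% by totals. CCNA2, CDK1, CENPF, DLGAP5, ECT2, KIF2C, PRC1, TOP2A and BIRC5 were no longer called by totals. Without the filter on low counts CCNA2 and BIRC5 were not called, and with only the differentiated libraries in the fit CDC20 and KIFC1 were called higher as well.

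Erythroid, mast cell and megakaryocyte markers and ribosomal RNA moved with the genotype in differentiated cells. Of 14 erythroid markers, 13 were called higher, and their summed level was 21466 to 33715 CPM in knockout and 10714 to 13504 CPM in control libraries. The erythroid sums at either stage include the globin genes HBB, HBA1 and HBA2, whose RNA was a target of the depletion. Of 12 mast cell and basophil markers, 7 were tested and 6 were lower, with summed levels of 387 to 412 CPM in knockout and 683 to 697 CPM in control libraries, and with CLC at 0 in the knockout group. Of 12 megakaryocyte markers, 3 were tested and 2 were higher (248 to 278 CPM summed in knockout and 125 to 127 CPM in control libraries), while PPBP and GP1BB were at 0 in both groups and PF4 in the knockout group. Of 13 neutrophil and monocyte markers, 5 were tested and 0 called (1 at an unadjusted p under 0.05, 0 by DESeq2), with sums of 4.45 to 5.76 CPM in knockout and 4.10 to 5.25 CPM in control libraries and CTSG, S100A8 and S100A9 at 0 in the knockout group. Ribosomal RNA took 1.68% to 2.74% of counts in knockout and 0.562% to 1.05% in control libraries. Mitochondrially encoded genes took 1.82% to 2.80% in knockout and 1.59% to 1.92% in control libraries, and globin genes 0.644% ± 0.540 in knockout and 0.182% ± 0.117 in control libraries (SD, n = 3 each), both with overlap. The part of these markers in the result was not tested. Without the genes of ribosomal RNA, mitochondrial and globin transcripts, 19 members were again called higher and 0 lower. Ribosomal and globin RNA had been depleted, so their shares also depend on how much the depletion left.

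**Figure D3:**
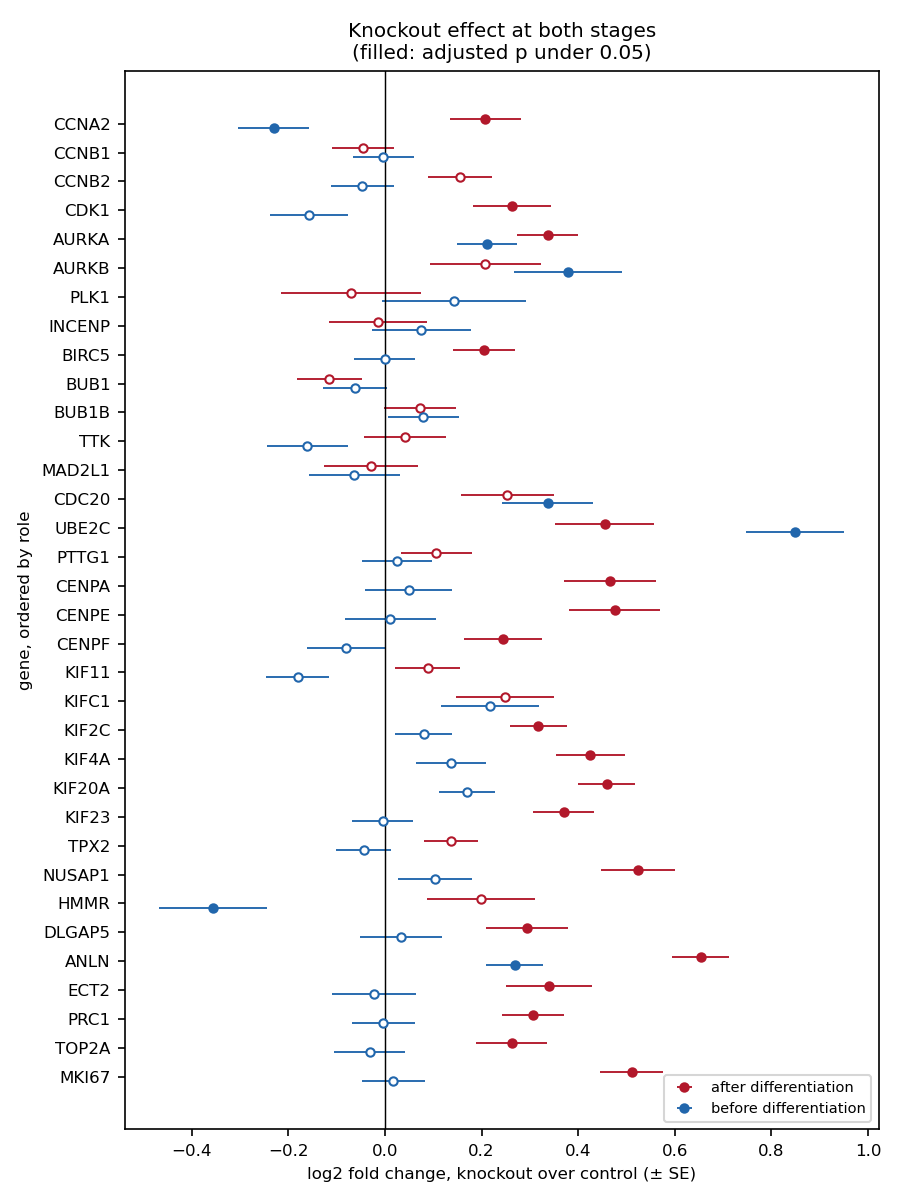
Log2 fold change (± SE) of knockout over control for the 34 genes, after (red) and before (blue) differentiation, with filled points for an adjusted p under 0.05. Most red points lie right of 0 and right of their blue point, except for UBE2C, AURKB, CDC20 and some genes called at neither stage, and the only filled points left of 0 are CCNA2 and HMMR before differentiation.

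Before differentiation fewer of these genes were called than after it, in both directions, and their median lay close to that of all genes. Of the 34, 5 were called higher (ANLN, AURKA, AURKB, CDC20 and UBE2C) and 2 lower (CCNA2 and HMMR), where 9.07% of all genes tested were called higher and 8.15% lower. UBE2C rose most, 1.80-fold. The median log2 fold change of the 34 was 0.01, beside -0.00 over all genes. Summed over the 34 genes, the knockout libraries held 6952, 6197 and 6817 CPM and the control libraries 6989, 6757 and 6513 CPM, and the groups overlapped.

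UBE2C had 26.6, 28.2 and 24.7 CPM in the knockout libraries before differentiation, against 15.4, 15.7 and 12.9 CPM in the control libraries. Its groups were far apart, and it differed by 0.85 ± 0.10 on the log2 scale (adjusted p = 1.35e-05). CDC20 had 68.9, 82.3 and 70.3 CPM in the knockout libraries before differentiation, against 51.2, 62.8 and 60.8 CPM in the control libraries, and AURKB had 16, 18.9 and 16.5 CPM in the knockout libraries before differentiation, against 14, 11.9 and 13.6 CPM in the control libraries. In both genes the knockout libraries were all above the controls, and their log2 fold changes were 0.34 ± 0.09 and 0.38 ± 0.11. ANLN had 126, 114 and 128 CPM in the knockout libraries before differentiation, against 103, 101 and 103 CPM in the control libraries (log2 fold change 0.27 ± 0.06). AURKA had 122, 109 and 110.5 CPM in the knockout libraries before differentiation, against 100, 98.2 and 97.9 CPM in the control libraries (log2 fold change 0.21 ± 0.06). ANLN, AURKA and UBE2C were the 3 genes called higher at both stages, which is 60% of the 5 called before and 15.8% of the 19 called after differentiation. How many of all genes tested were called higher at both stages was not counted.

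CCNA2 had 283, 248 and 265 CPM in the knockout libraries before differentiation, against 330.0, 312 and 293 CPM in the control libraries, all knockout libraries lower, for a log2 fold change of -0.23 ± 0.07 (adjusted p = 0.0392). HMMR had 125, 93.5 and 98.7 CPM in the knockout libraries before differentiation, against 152, 135 and 119 CPM in the control libraries. Knockout replicate 1 of HMMR was within the control range, and the log2 fold change was -0.36 ± 0.11 (adjusted p = 0.0353). CCNA2 was thus lower in knockout cells before and higher after differentiation. All knockout libraries were above the controls for 7 of the 34 genes and below them for 2, where 15.3% of all genes tested lay above and 15.4% below. KIF20A and KIF4A were above and KIF11 was below without being called, with log2 fold changes of 0.17, 0.14 and -0.18. Of the 34 genes, 12 were called in neither knockout comparison: BUB1, BUB1B, CCNB1, CCNB2, INCENP, KIF11, KIFC1, MAD2L1, PLK1, PTTG1, TPX2 and TTK. The share of all genes tested that was called in neither was not counted.

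Of the 7 calls before differentiation, 5 were lost when certain single libraries were left out. Knockout replicate 2 had the lowest value of its group for 22 of the 34 genes, and control replicate 1 the highest of its group for 23. ANLN and UBE2C were called with any 1 of the 12 libraries left out. AURKA was not called without knockout replicate 1 before differentiation or control replicates 1, 2 and 3 before differentiation (adjusted p from 0.0755 to 0.137), AURKB not without knockout replicate 2 before differentiation or control replicate 2 before differentiation (adjusted p from 0.107 to 0.144), and CDC20 not without knockout replicate 2 before differentiation or control replicate 1 before differentiation (adjusted p from 0.0971 to 0.115). CCNA2 was not called without control replicate 1 after differentiation, knockout replicates 2 and 3 before differentiation or control replicates 1 and 2 before differentiation (adjusted p from 0.0565 to 0.171), and HMMR not without knockout replicates 2 and 3 before differentiation or control replicates 1 and 2 before differentiation (adjusted p from 0.0886 to 0.178). By library totals alone 2 were called higher and 3 lower, with AURKA, AURKB and CDC20 lost and KIF11 added (without the filter on low counts AURKA, AURKB and CCNA2 were lost, and with only these 2 groups in the fit AURKA, AURKB, CCNA2 and HMMR), and 44.4% of calls over all genes were higher, against 52.7% with TMM. Neutrophil and monocyte markers had summed levels of 23.1 to 27.8 CPM in knockout and 10.9 to 13.5 CPM in control libraries at this stage, with 4 of the 5 tested called higher and S100A8 and S100A9 at 0 in both groups, and mast cell and basophil markers had 749 to 778 CPM in knockout and 956 to 1010.0 CPM in control libraries, with 4 of 7 lower. Erythroid markers were called higher for 9 of 14, though their sums overlapped (9216 to 15108 CPM in knockout and 8642 to 13817 CPM in control libraries). Megakaryocyte markers were higher for all 3 tested of 12, with sums of 147 to 169 CPM in knockout and 95.0 to 110 CPM in control libraries. PPBP and GP1BB were at 0 in both groups. The part of these markers in the result was not tested.

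The knockout effect was more positive after than before differentiation for part of the list. The difference of the 2 effects, tested as an interaction in the same fit, was positive and called for 11 of the 34 genes and negative and called for 0, where 6.28% of all genes tested had a positive and 6.68% a negative call. The 11 were the cyclin and kinase genes CCNA2 and CDK1, the centromere genes CENPA and CENPE, the kinesins KIF20A and KIF23, the spindle genes NUSAP1 and HMMR, the cytokinesis genes ANLN and PRC1, and MKI67. The median interaction over the 34 was 0.25 on the log2 scale, beside -0.01 over all genes.

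HMMR had the largest difference of effects among the calls, 0.56 ± 0.16, since its fold change was 0.20 after and -0.36 before differentiation on the log2 scale. MKI67 had a difference of 0.49 ± 0.09 (adjusted p = 0.00193), with 0.51 after and 0.02 before. For CCNA2 it was 0.44 ± 0.10 (adjusted p = 0.0098), with effects of 0.21 after and -0.23 before. NUSAP1 differed by 0.42 ± 0.11 and ANLN by 0.38 ± 0.08. ANLN was thus higher in knockout cells at both stages and more so after differentiation. UBE2C was the reverse in its values, 0.46 after and 0.85 before, but its difference of -0.39 ± 0.14 was not called (adjusted p = 0.0857). At an unadjusted p under 0.05, 1 of the 34 genes had a negative interaction (UBE2C), and DESeq2 called 10 positive, all but CENPA, and 0 negative.

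ANLN, CCNA2, KIF23, NUSAP1 and MKI67 had a called interaction with any 1 library left out. The other 6 did not: CDK1 lost the call without knockout replicates 1 and 2 after differentiation, control replicates 1 and 2 after differentiation or control replicate 1 before differentiation (adjusted p from 0.0542 to 0.0639), CENPE without knockout replicates 1 and 2 after differentiation, control replicates 2 and 3 after differentiation or control replicates 1 and 2 before differentiation (adjusted p from 0.0525 to 0.0822) and KIF20A without knockout replicates 1 and 2 after differentiation, control replicates 1 and 2 after differentiation or control replicates 1 and 2 before differentiation (adjusted p from 0.0531 to 0.0769). HMMR lost it without knockout replicates 1 and 2 after differentiation, control replicates 1 and 2 after differentiation, knockout replicates 2 and 3 before differentiation or control replicates 1 and 2 before differentiation (adjusted p from 0.0534 to 0.0813). CENPA lost it without knockout replicates 1, 2 and 3 after differentiation, control replicates 2 and 3 after differentiation, knockout replicates 1 and 3 before differentiation or control replicates 2 and 3 before differentiation (adjusted p from 0.0589 to 0.112), and PRC1 without knockout replicates 1 and 3 after differentiation, control replicates 1, 2 and 3 after differentiation, knockout replicates 2 and 3 before differentiation or control replicates 2 and 3 before differentiation (adjusted p from 0.0519 to 0.0763). Without the filter on low counts CENPA, KIF20A, KIF23 and PRC1 had no called interaction. By library totals alone the interaction was positive for 2, CCNA2 and MKI67, and negative for 1, UBE2C, with a median of 0.11 over the 34 and -0.15 over all genes, and 23.1% of all calls were positive, against 48.5% with TMM.

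With differentiation, more of these genes rose in knockout cells than in control cells. In knockout cells 21 of the 34 genes were higher after than before differentiation and 3 lower, where 28.0% of all genes were called higher and 27.7% lower. In control cells 8 were higher and 8 lower, where 21.5% of all genes were called higher and 22.3% lower. The median log2 fold change, after over before, was 0.24 in knockout cells (0.03 over all genes) and 0.02 in control cells (0.01 over all genes). All later libraries were above all earlier ones for 20 of the 34 genes in knockout cells and below them for 2, where 30.3% of all genes lay above and 29.7% below. In control cells they were above for 13 and below for 8, where 26.8% of all genes lay above and 27.2% below. The stage comparisons also carry the change of medium. Of the 14 erythroid markers, 11 were called higher after differentiation in knockout and 10 in control cells. Of the 7 tested mast cell and basophil markers, 7 were lower in knockout and 5 in control cells, with sums of 387 to 412 CPM after and 749 to 778 CPM before in knockout libraries and 683 to 697 CPM after and 956 to 1010.0 CPM before in control libraries. Of the 5 tested neutrophil and monocyte markers, 5 were lower in knockout and 2 in control cells. The part of these markers in the stage results was not tested.

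PRC1 changed most with differentiation in both genotypes. It had 232, 227 and 253 CPM after and 129, 114 and 116 CPM before differentiation in knockout libraries, a log2 fold change of 0.98 ± 0.06. In control libraries PRC1 had 194, 192 and 189 CPM after and 119, 118 and 124 CPM before, a log2 fold change of 0.67 ± 0.06. The stages did not overlap in either genotype. Higher after differentiation in both were 7 genes: ANLN, BUB1B, DLGAP5, INCENP, KIF4A, PLK1 and PRC1. How many of all genes tested were higher in both genotypes was not counted. ANLN measured 0.74 ± 0.06 in knockout and 0.35 ± 0.06 in control cells, and PLK1 0.39 ± 0.15 in knockout and 0.60 ± 0.15 in control cells. BUB1B, INCENP and PLK1 were not called in knockout cells by library totals alone.

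MKI67 was the only member called in opposite directions in the 2 genotypes. It had 834, 862 and 910.4 CPM after and 699.8, 728 and 768 CPM before differentiation in knockout libraries (log2 fold change 0.25 ± 0.07). In control libraries it had 637, 612 and 579 CPM after and 702, 729 and 739 CPM before (log2 fold change -0.25 ± 0.07). After-differentiation libraries were all above the earlier ones in knockout cells and all below them in control cells, and the difference is the interaction given above. MKI67 was not called in knockout cells by library totals alone (log2 fold change 0.064, adjusted p = 0.473), while its call in control cells and its interaction stayed.

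A group of 13 genes was called higher after differentiation in knockout cells and not called in control cells: CCNA2, CCNB2, CDK1, CENPE, CENPF, ECT2, HMMR, KIF23, KIF2C, NUSAP1, PTTG1, TOP2A and TPX2. The share of all genes tested with this pattern, or with the other stage patterns named here, was not counted. CDK1 measured 0.58 ± 0.08 in knockout and 0.16 ± 0.08 in control cells, and KIF23 0.48 ± 0.06 in knockout and 0.10 ± 0.06 in control cells. Of the 13, CCNA2, CDK1, CENPE, HMMR, KIF23 and NUSAP1 had a called interaction, and for the other 7 the difference between genotypes was not called. CCNA2, CCNB2, ECT2, PTTG1, TOP2A and TPX2 were not called in knockout cells by library totals alone, with TOP2A at 0.031. CENPA, KIF11, KIF20A and BIRC5 were called lower after differentiation in control cells and not called in knockout cells. CENPA had 25.0, 27.1 and 26.7 CPM after and 25.5, 26.3 and 26.3 CPM before in knockout libraries, and 20.3, 18.4 and 18.3 CPM after and 22.5, 25.3 and 27.7 CPM before in control libraries. The stages overlapped in knockout and not in control libraries. Of these 4 genes, CENPA and KIF20A had a called interaction. By library totals alone KIF11 (-0.32, adjusted p = 0.000268) and BIRC5 (-0.21, adjusted p = 0.0126) were called lower in knockout cells too.

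The checkpoint genes BUB1 and MAD2L1 and the cyclin gene CCNB1 were lower after differentiation in both genotypes. CCNB1 had 235, 235 and 216 CPM after and 279, 258 and 267 CPM before differentiation in knockout libraries, and 239, 227 and 242 CPM after and 280.3, 273 and 253 CPM before in control libraries. Its log2 fold changes were -0.23 ± 0.06 in knockout and -0.19 ± 0.06 in control cells. UBE2C was called higher after differentiation in control cells and not in knockout cells (0.03 ± 0.10 in knockout and 0.42 ± 0.11 in control cells), and the difference between genotypes was not called. AURKA, AURKB, CDC20, KIFC1 and TTK were called in neither genotype.

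In knockout cells the stage calls of BUB1B, CCNB2, ECT2, MAD2L1, PLK1, PTTG1 and TOP2A were lost when certain libraries were left out. MAD2L1 lost it without knockout replicates 2 and 3 after differentiation, control replicate 1 after differentiation, knockout replicate 3 before differentiation or control replicate 2 before differentiation (adjusted p from 0.061 to 0.266), at a log2 fold change of -0.13 without knockout replicate 3 before differentiation. PLK1 lost it without knockout replicate 3 after differentiation or knockout replicates 1 and 3 before differentiation (adjusted p from 0.0681 to 0.247), at 0.20 without knockout replicate 3 after differentiation, and PTTG1 without knockout replicate 2 after differentiation or knockout replicates 2 and 3 before differentiation (adjusted p from 0.0538 to 0.166), at 0.14 without knockout replicate 2 after differentiation. BUB1B lost it without knockout replicate 1 after differentiation (adjusted p = 0.0539), CCNB2 without knockout replicate 2 after differentiation or knockout replicates 2 and 3 before differentiation (adjusted p from 0.0639 to 0.0964), ECT2 without knockout replicate 2 after differentiation (adjusted p = 0.0554) and TOP2A without knockout replicates 1 and 2 after differentiation or knockout replicate 2 before differentiation (adjusted p from 0.065 to 0.0903). In control cells BUB1, CCNB1, KIF20A and MAD2L1 each lost the call without control replicates 1 and 2 after differentiation or control replicates 1 and 2 before differentiation (adjusted p up to 0.102). Without the filter on low counts BUB1B, CCNB2, PTTG1, TOP2A and TPX2 lost the call in knockout and KIF20A in control cells, and with only the knockout libraries in the fit CCNB2, MAD2L1, PLK1, PTTG1 and TOP2A lost it. By library totals alone 11 were higher and 5 lower in knockout cells, with a median of 0.057 over the 34 and -0.16 over all genes, and 8 were higher and 9 lower in control cells. The share of all calls that were higher was 35.1% by totals and 50.3% with TMM in knockout cells.

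**Figure D4:**
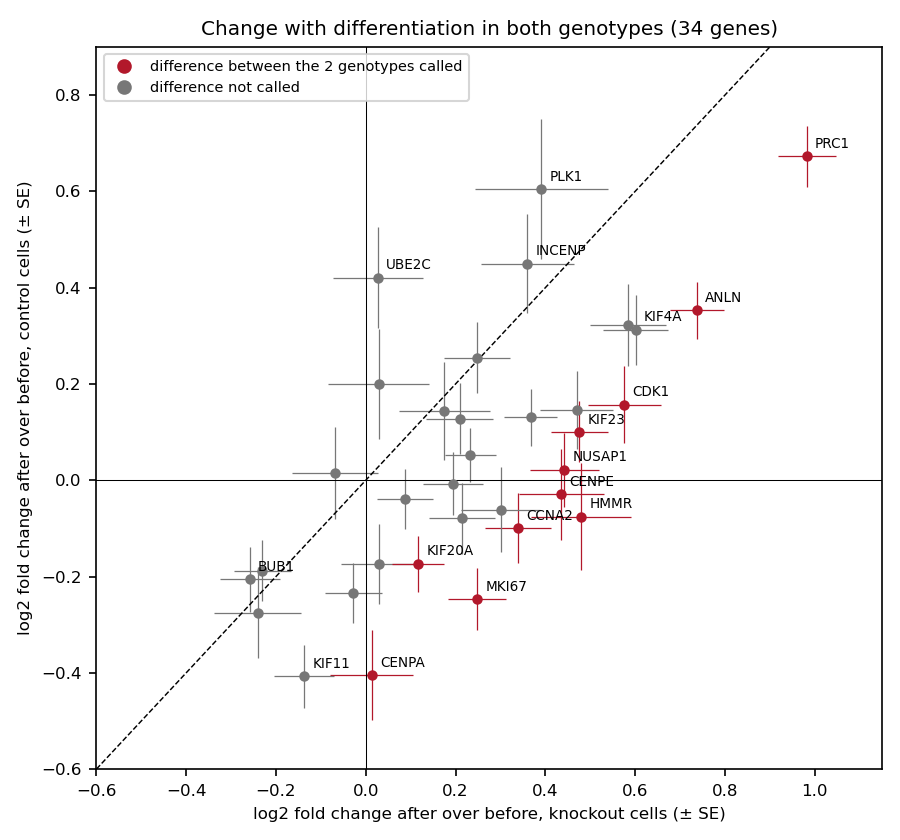
Log2 fold change of after over before differentiation in knockout cells (x axis) and in control cells (y axis) for the 34 genes, with SE bars, and red points where the difference between the genotypes was called. All 11 red points lie below the dashed line of equal change, and MKI67 lies right of 0 on the x axis and below 0 on the y axis.

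Other genes of mitosis, taken as lists of 134 genes in all, were called higher more often than lower in differentiated knockout cells with TMM scaling. These lists too were chosen with earlier results of these data known. Of the 134, 47 were called higher and 14 lower, with a median log2 fold change of 0.12, beside the 16.8% higher and 16.3% lower of all genes. Before differentiation 6 were higher and 13 lower, where 9.07% of all genes were called higher and 8.15% lower. The interaction was called for 27 as positive and for 3 as negative, where 6.28% of all genes had a positive and 6.68% a negative call. By library totals alone 20 were higher and 32 lower after differentiation. Without control replicate 1 after differentiation 7 were lower, and without knockout replicate 2 after differentiation 9.

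Condensin and cohesin, the ring complexes that compact chromosomes and hold sister chromatids together, had 14 of 22 genes higher and 1 lower in differentiated knockout cells. Among all genes tested, 16.8% were higher and 16.3% lower. NCAPG2, a condensin II subunit, had 230.2, 250.4 and 223 CPM in the knockout libraries after differentiation, against 142, 144 and 143 CPM in the control libraries, a log2 fold change of 0.72 ± 0.06. The cohesin subunit STAG2 measured 0.78 ± 0.08 and SMC2, the core of condensin, 0.68 ± 0.07. ESCO1, which acetylates cohesin and lies on chromosome 18, was the 1 lower gene at -0.55 ± 0.07.

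The other kinetochore genes had 9 of 41 higher and 4 lower, where 16.8% of all genes were higher and 16.3% lower. HJURP, the chaperone that loads CENPA, had 169.9, 160.0 and 154 CPM in the knockout libraries after differentiation, against 115, 113 and 122 CPM in the control libraries, a log2 fold change of 0.47 ± 0.06, without overlap. The microtubule-binding SKA2 and the kinetochore protein DSN1 were higher (0.48 and 0.28), and TRIP13 and ZW10 were among the lower genes (-0.27 and -0.26). The call of ZW10 was lost without control replicate 1 (adjusted p = 0.064) or knockout replicate 2 (adjusted p = 0.0577). By library totals and without the filter on low counts DSN1 was not called. Before differentiation 1 was higher and 5 were lower, where 9.07% of all genes were higher and 8.15% lower. Among the lower genes were SKA1 (-0.43) and NDC80 (-0.49), which both lie on chromosome 18.

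The anaphase promoting complex had 5 of 17 genes higher and 3 lower, where 16.8% of all genes were higher and 16.3% lower. CDC27, one of its core subunits, had 321, 320.5 and 294 CPM in the knockout libraries after differentiation, against 191, 187 and 202 CPM in the control libraries (log2 fold change 0.69 ± 0.07), and its inhibitor FBXO5 measured 0.39 ± 0.07. The subunit ANAPC11 was higher at 0.38 ± 0.11, a call lost by totals and without control replicate 1 (adjusted p = 0.0507) or knockout replicate 3 (adjusted p = 0.0528). ANAPC1 was lower at -0.36 ± 0.07, and ANAPC5 and ANAPC7 at -0.17 and -0.16, calls that were lost when any 1 of 10 libraries was left out (adjusted p up to 0.162 for ANAPC5 and 0.157 for ANAPC7) and without the filter on low counts (adjusted p = 0.111 and 0.185), and for ANAPC7 also in DESeq2.

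Spindle and centrosome genes outside the list had 11 of 30 higher and 5 lower, where 16.8% of all genes were higher and 16.3% lower. PCNT, the pericentrin of the centrosome, and the spindle proteins CKAP2L and CKAP2 led the higher genes (0.57, 0.66 and 0.41). CEP152, CEP192 and CEP55 were lower (-0.44, -0.38 and -0.60), and all 3 were also lower before differentiation (-0.51, -0.52 and -0.65). CEP55, which brings the abscission machinery to the midbody, had 11.6, 13.1 and 11.5 CPM in the knockout libraries after differentiation, against 18.3, 19.2 and 17.4 CPM in the control libraries, in the opposite direction to ANLN, PRC1 and ECT2. CEP192 lies on chromosome 18. Regulators of mitotic entry and exit had 8 of 24 higher, led by the CDK1-inhibiting kinase WEE1 (0.48 ± 0.07), cyclin F (CCNF, 0.54 ± 0.09) and citron kinase (CIT, 0.30 ± 0.06, not called by totals), and 1 lower, PPP2R2D (-0.24 ± 0.08), whose call was lost when any 1 of 4 differentiated libraries was left out (adjusted p up to 0.106).

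**Figure D5:**
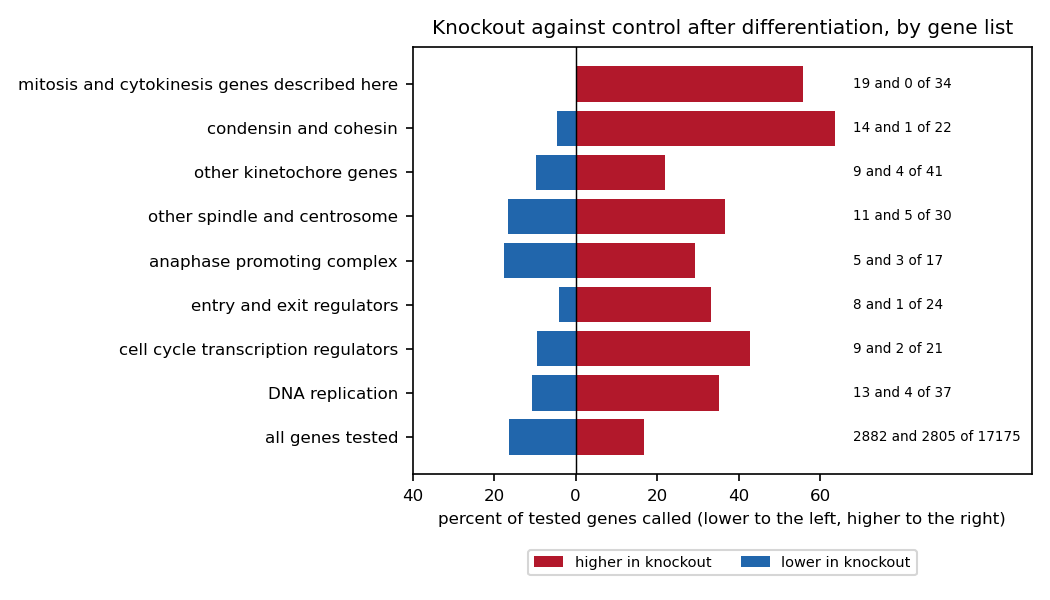
Percent of tested genes called higher (red, right) and lower (blue, left) in differentiated knockout against control cells, for the 34 genes, the other mitosis lists, 2 further cell cycle lists and all genes tested, with counts printed at the right. The 34 genes have 19 higher and 0 lower. Every other bar group has genes on both sides, with condensin and cohesin at 14 of 22 higher and 1 lower.

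Transcription regulators of the cell cycle went in both directions. Of 21, 9 were called higher and 2 lower in differentiated knockout cells, where 16.8% of all genes were higher and 16.3% lower. E2F2, an activator E2F with a known part in the last erythroid divisions, had 59.6, 57.7 and 68.3 CPM in the knockout libraries after differentiation, against 18.8, 20.9 and 16.8 CPM in the control libraries, a log2 fold change of 1.70 ± 0.10, and before differentiation 0.61 ± 0.10. E2F7 and E2F8, the atypical E2F repressors, were higher on the log2 scale by 1.04 ± 0.14 and 0.49 ± 0.08, E2F1 by 0.55 ± 0.12, the MuvB subunit LIN9 by 0.41 ± 0.08 and E2F4, the DREAM complex E2F, by 0.42 ± 0.10 (not called by totals). MYBL2, the B-MYB activator, measured 0.37 ± 0.14, a call lost with RLE scaling, by totals and when any 1 of 6 libraries was left out (adjusted p up to 0.28 in all of these). E2F3 was lower at -0.34 ± 0.08. E2F5, the second lower call, measured -0.33 ± 0.12 and lost its call when any 1 of 9 libraries was left out (adjusted p up to 0.166), in DESeq2 (0.0789), without the filter on low counts (0.088) and with the replicate number as a block (0.0526).

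FOXM1, the forkhead activator of mitotic genes, had 15.4, 15.9 and 17.3 CPM in the knockout libraries after differentiation, against 16.4, 16.8 and 16.3 CPM in the control libraries. The groups overlapped, and the log2 fold change was -0.03 ± 0.11 (adjusted p = 0.862). With differentiation FOXM1 rose on the log2 scale by 0.60 ± 0.12 in knockout and 0.51 ± 0.11 in control cells. The pocket proteins RBL1 and RBL2, repressors within DREAM, measured -0.08 ± 0.08 and -0.13 ± 0.06 in differentiated knockout against control cells and were not called, although both were called lower by library totals. The 37 DNA replication genes had 13 higher and 4 lower in differentiated knockout cells, with a median of 0.14 on the log2 scale. Among all genes tested, 16.8% were higher and 16.3% lower. CCNE1, RRM2 and MCM2 led the higher genes at 0.87, 0.64 and 0.59. Of the lower ones, RFC3, MCM3 and POLA1 measured -0.18, -0.18 and -0.19, and these calls were lost when any 1 of 6 libraries (RFC3 and MCM3) or 10 libraries (POLA1) was left out or the filter on low counts was dropped (adjusted p up to 0.147). The interaction was called for 1 of the 37, as positive, where 6.28% of all genes had a positive call.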

How the data were processed

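RNA of 12 HUDEP-2 libraries in 4 groups of 3 was analysed from 1 deposited table of raw counts of read pairs for 60483 genes. Per the file headers, these counts came from featureCounts 1.4.6-p4, run by the authors on read pairs at the exon level with genes of GENCODE 22 in hg38, without a strand option, although the kit keeps strand. The submitters' processing notes name Trimmomatic, FastQC, Subread 1.6.2, featureCounts 1.2.6 and edgeR 3.18.1. Symbols were joined by identifier from GENCODE 29, which named 56753 genes and left 3730 without a name. There were 0 columns of values without a sample.

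Counts were tested in R 4.3.3 with edgeR 4.0.16. The filter filterByExpr with the 4 groups kept 17175 genes, libraries were scaled with TMM factors, and glmQLFit fitted 1 mean per group to the 12 libraries together. Contrasts were tested two-sided with glmQLFTest, and p-values were adjusted by Benjamini-Hochberg over all genes tested, with calls under 0.05. The SE is the size of the log2 fold change divided by the square root of its F statistic, and the common biological coefficient of variation was 0.089. An exact permutation test of 3 against 3 libraries cannot go below 0.1, so p-values come from the fit across genes. CPM values are library-scaled counts and the levels per kilobase use the deposited exon lengths. The procedure was also run on simulated counts in which a small set of genes changed, as many up as down. That run holds no large shift in composition and so does not bear on the choice between TMM and library totals. All replicate pairs differed by more than sampling noise.

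The members, the other gene lists and the alternatives were chosen with earlier results of these data known. Named genes were all members, up to 3 genes per direction with the smallest adjusted p from each other list, and 8 regulators (FOXM1, MYBL2, E2F1, E2F2, E2F4, RBL1, RBL2 and LIN9) whatever their values. Alternatives were RLE factors, library totals alone, no filter, the replicate number as a block, the groups of each contrast alone, DESeq2 1.42.0, removal of ribosomal RNA, mitochondrial and globin genes, and leaving out each library.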

Additional observations from a re-analysis of the deposited data

Results flagged for a closer look

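For 11 of the 34 genes the knockout effect differed between the stages, by a test of the difference itself (an interaction in the edgeR quasi-likelihood fit, adjusted over all genes tested). The knockout effect after minus that before differentiation was 0.56 for HMMR, 0.49 for MKI67, 0.46 for CENPE and 0.44 for CCNA2 on the log2 scale. It was 0.42 for NUSAP1, 0.42 for CDK1, 0.42 for CENPA and 0.38 for ANLN. KIF23 had 0.38, PRC1 0.31 and KIF20A 0.29. Of all genes tested, 6.28% had a positive call of this kind. In HMMR and CCNA2 the effect was called lower before differentiation, and of the 2 CCNA2 alone was called higher after it.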

How the results depend on the processing

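With scaling by library totals alone, after differentiation there were 10 higher and 2 lower calls and a median of 0.095 for knockout against control, and before differentiation 2 higher. For after against before in knockout cells it gave 11 higher, 5 lower and a median of 0.0568, and in control cells a median of -0.0316. For the interaction it gave 2 higher, 1 lower and a median of 0.115. Without the filter on low counts, knockout against control before differentiation had 3 higher and 1 lower calls, the interaction had 7 higher, and the knockout stage median was 0.19. With only the groups of the contrast, the comparison before differentiation had 3 higher and 0 lower calls (edgeR, with 3 lower at an unadjusted p under 0.05 and 2 lower called by DESeq2 in all groups), and that fit was not run for the interaction. RLE factors, DESeq2 and removal of ribosomal RNA, mitochondrial and globin genes kept every count within 1.5 times. Leaving out each library gave 3 to 5 higher and 0 to 3 lower calls before differentiation, 4 to 9 lower in control cells with stage, and 5 to 12 positive interactions. No call of a named gene changed direction under any alternative run.

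The labels give no meaning to the replicate numbers, and the correlations of same-numbered libraries' deviations from their group means ran from -0.0179 to 0.251 over 18 pairs, of which 10 were above 0.1, as were 6 of the 36 pairs of other numbers. In none of the 4 pairs of groups compared here were all 3 above 0.1, although they were (0.106 to 0.251) for knockout after and control before differentiation. Of the 12 libraries, 3 correlated best with their own number in every other group, a hint from the data and not the design. With the replicate number as a block, 21 genes were higher and 0 lower in knockout cells after differentiation (CDC20 and KIFC1 added) and 5 higher and 2 lower before it. The stage calls with the block were 21 higher and 3 lower in knockout cells and 8 higher and 8 lower in control cells, and the interaction was positive for 14 (CENPF, ECT2 and TOP2A added). Counting depth of 7667997 to 14047498 per library limits the low genes most, PLK1, AURKB, CENPA and UBE2C among them.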
